A study of Mus musculus with 12 samples.

Results

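The C-type protocadherins are 5 genes, Pcdhac1, Pcdhac2, Pcdhgc3, Pcdhgc4 and Pcdhgc5, which stand at the downstream ends of the alpha and gamma protocadherin clusters on mouse chromosome 18. CTCF peaks were taken as members of this set when their summit lay within 1 kb of a start site of one of these genes, or when it lay in chr18:36930184-38000000 (mm10) and over 1 kb from every start site of a clustered protocadherin, an interval that holds the distal enhancers of the clusters. Summits of the peak lists within 200 bp of each other were joined, which gave 20 member sites out of 61068 sites in the genome. The lists held 15 member regions of 36034 in wild-type brain, 16 of 38390 in R567W brain, 14 of 21059 in wild-type heart, 8 of 11515 in R567W heart, 16 of 44386 in wild-type lung and 16 of 32498 in R567W lung.

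The libraries came from brain, heart and lung of C57BL/6 mouse embryos (C57BL/6 N in the study's methods) late in gestation (E18.5). Wild-type embryos were compared with embryos homozygous for R567W, an arginine-to-tryptophan change in a zinc finger of CTCF that was introduced by CRISPR/Cas9. With 1 CTCF ChIP library for each organ and genotype, replicates were lacking, so values within an organ are given with no test, and their intervals at 95% cover counting error only. The genotypes were tested only across the 3 organs, at sites with a peak in all 6 lists. The organ and the genotype of a library could not be checked from CTCF peaks. Whole organs were used, so fewer cells with a bound site and less binding per cell cannot be told apart.

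Clustered protocadherins are cell adhesion proteins of neurons. In the alpha and gamma clusters, each variable exon has its own promoter and is spliced to the constant exons shared by its cluster. CTCF recognises a core motif with its central zinc fingers and, where present, an upstream motif with its last ones. With cohesin, it brings the promoters of the alternate isoforms to enhancers downstream of the constant exons, and the choice among these promoters differs from neuron to neuron. The C-type isoforms are chosen less randomly. The promoters of Pcdhac2, Pcdhgc4 and Pcdhgc5 are known to lack the conserved sequence element that binds CTCF at most promoters of the family. A known enhancer of the alpha cluster with a pair of CTCF sites lies downstream of the alpha constant exons, and a group of enhancers of the beta and gamma clusters lies downstream of the gamma constant exons, toward Diaph1, which encodes a formin. The member sites were not matched to these enhancers one by one, and are named by position.

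Levels are given as the summit pileup, which is the number of extended reads over the summit, and as the pileup divided by the genome background of its list, which corrects for depth. Where a pair of values is given for an organ, the wild type stands first. The depth of the lists was alike, and ranged from 7.14 to 9.27 reads for each kb of effective genome. The human spike-in chromatin added before ChIP does not enter the peak lists, so a ratio between genotypes is relative to each library and would miss a change shared by all sites. In wild-type lung the local background rose with the pileup, with a Spearman rho of 0.83 over 16 member sites and 0.87 over all regions, and reached 13.1 times the genome background at a member site. In the other 5 lists it stayed at or below 2.60 times at every member site. Fold enrichment, which divides by the local background, is therefore not the measure used to compare wild-type lung with the other lists, and is given where it turned the sign of a ratio that was off 1.

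At the promoters of the C-type genes, peaks were listed for 3 of 5 genes. The genes listed were the same in the 3 wild-type organs and differed between organs in R567W. The Pcdhac1 promoter and the Pcdhgc3 promoter had peaks in all 3 wild-type organs, the Pcdhac2 promoter had a peak in R567W brain alone, and no list held a peak at Pcdhgc4 or Pcdhgc5. By list, 2 of 5 C-type genes had a promoter peak in wild-type brain (40.0%, Wilson interval 11.8 to 76.9%), 3 in R567W brain, 2 in wild-type heart, 1 in R567W heart, 2 in wild-type lung and 1 in R567W lung. Alternate gamma genes had a promoter peak at 13 of 19 genes in wild-type brain, 14 in wild-type heart and 13 in wild-type lung, and at 15, 2 and 12 in the R567W libraries. Alternate alpha genes, by the same count, had 2, 0 and 2 of 11 genes in the wild type and 4, 0 and 1 in R567W. Beta genes had 1, 0 and 3 of 22 genes in the wild type and 0 in each R567W list. The paper describes CTCF binding at most of these promoters as weak and hard to detect by peak calling at default settings. A promoter with no listed peak may therefore still be bound.

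Pcdhac1 is the first C-type isoform of the alpha cluster, and its start site is at position 37090013. The peak at its promoter (chr18:37089727-37090256, summit 55 bp upstream of the start, in introns of alternate alpha transcripts) had a pileup of 91 reads in wild-type brain, 119 in R567W brain, 16 in wild-type heart and 46 in wild-type lung. No peak was listed in R567W heart or R567W lung. The levels over the genome background were 53.4 (interval 43.0 to 65.6), 58.9 (48.8 to 70.5), 9.22 (5.27 to 14.97) and 30.1 (22.1 to 40.2). The brain libraries were thus the high ones, and the intervals of wild-type brain, heart and lung did not overlap. In brain the ratio of R567W to wild type was 1.10, with an interval of 0.832 to 1.46 that includes 1.

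It was the only member region of wild-type lung without an R567W overlap, and 46 reads placed it at percentile 44.6 of the wild-type lung list by pileup. In heart the peak of 16 reads was at percentile 12.0 of its list. Of all wild-type regions, 67.0% in lung and 50.6% in heart had an R567W overlap, so many other regions lacked one too.

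Pcdhac2 is the last isoform of the alpha cluster. Its only peak (chr18:37143385-37143929) had 23 reads in R567W brain, over a local background of 4.47 reads, at percentile 32.8 of that list. The summit lay 261 bp inside the first exon, in the untranslated part. The wild-type brain list had no region there, and 24.5% of all R567W brain regions likewise had no wild-type overlap.

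Pcdhgc3 is the first C-type isoform of the gamma cluster and is known for expression outside neurons. The peak at its promoter (chr18:37805981-37806872, summit 88 bp upstream of the start at 37806410, in an exon of BC037039) was listed in all 6 libraries. Its pileup was 58 reads in wild-type and 35 in R567W brain, 35 against 35 in heart, and 187 against 122 in lung. In contrast to Pcdhac1, lung was the high organ. The level in wild-type lung, 123, was 3.60-fold that in wild-type brain (log2 1.85, interval 1.42 to 2.30) and 6.07-fold that in wild-type heart (log2 2.60). The log2 of lung over brain was at percentile 92.5 of all sites, and that of lung over heart at percentile 80.9, where lung was higher at 99.9% of all sites with a median log2 of 2.26. The ratio of R567W to wild type was 0.509 in brain (interval 0.324 to 0.787), 0.699 in lung (0.552 to 0.883) and 0.903 in heart (0.549 to 1.49). Brain was lower in R567W beyond counting error and heart was not. The lung call depended on the scale, since with the median over shared core-motif regions as the scale its log2 ratio was -0.15 (-0.49 to 0.19), and by fold enrichment, with the raised local background of wild-type lung, it turned to 1.03. The brain ratio was the lowest among the 15 member sites shared in brain, at percentile 11.9 of all shared brain regions. The lung ratio was at percentile 41.1, close to the middle of all shared lung regions. A side summit of 10 reads, 372 bp inside Pcdhgc3, was listed in R567W lung.

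A weaker peak (chr18:37808742-37809110) lay 2.5 kb downstream of the Pcdhgc3 start in the coding part of its first exon. It had 13 and 14 reads in wild-type and R567W brain and 42 and 20 in lung, and none was listed in heart. The lung ratio of 0.510 had an interval of 0.284 to 0.889 (log2 by fold enrichment 0.12, of the opposite sign, and -0.60 on the core-motif scale with an interval of -1.45 to 0.20), and the brain ratio of 0.908 had one that includes 1.

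**Figure D1:**
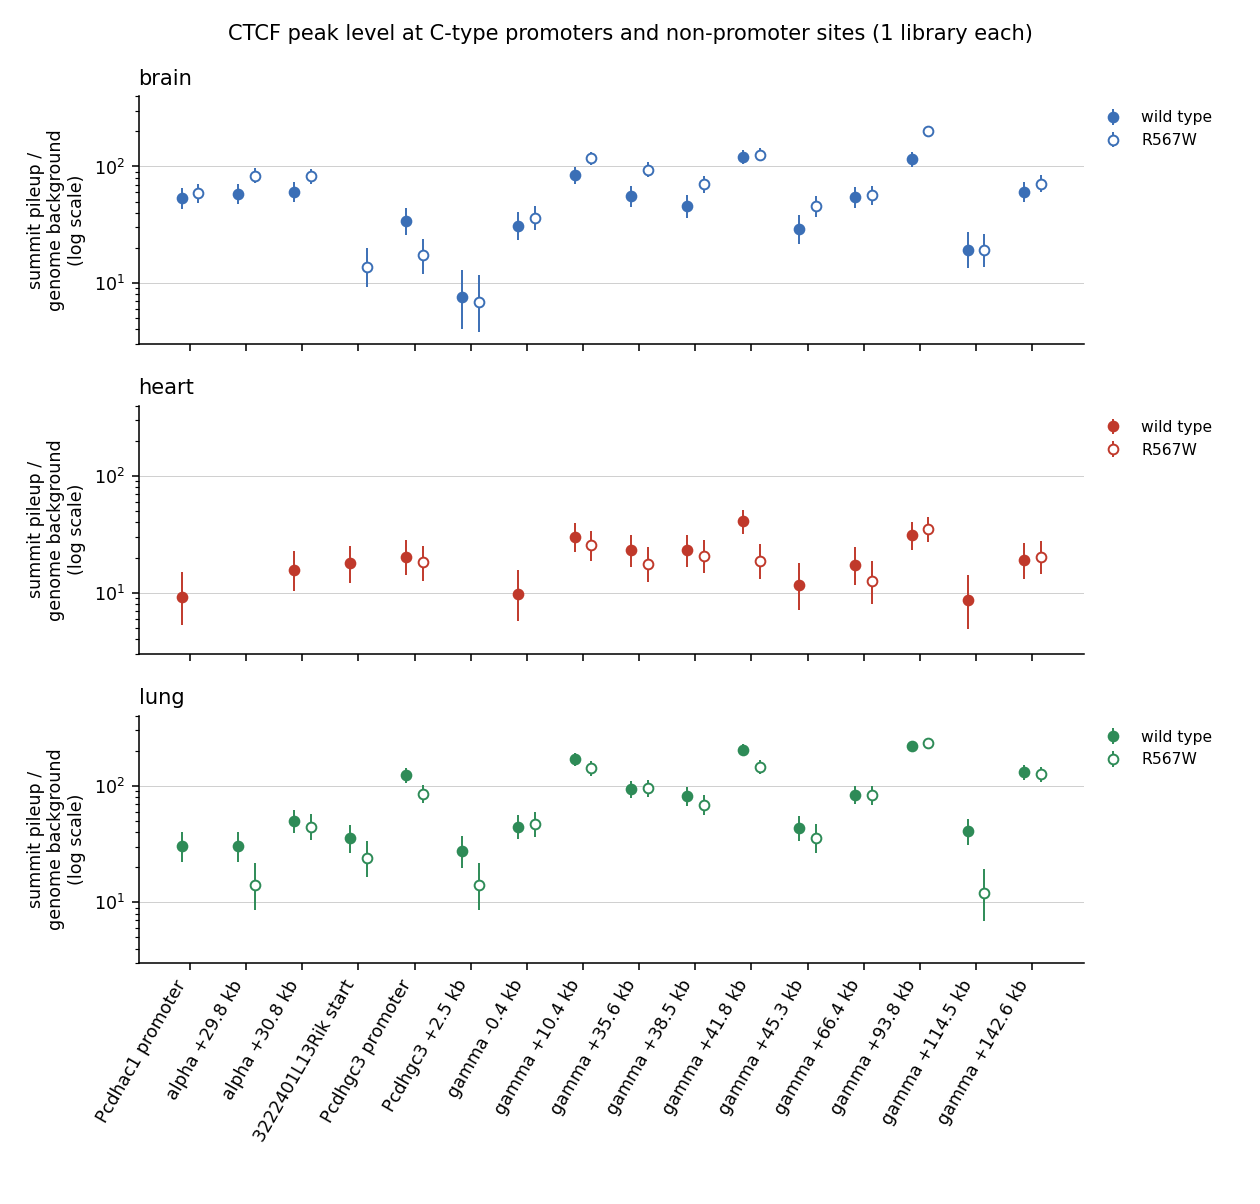
Summit pileup over the genome background (log scale) at the 16 member sites with a peak in 3 or more of 6 lists, ordered along the chromosome, in 1 wild-type library (filled) and 1 R567W library (open) per organ, with exact 95% Poisson intervals. Missing symbols are peaks that were not listed; wild-type heart is below wild-type brain at every site with both, R567W heart is level with R567W brain at the Pcdhgc3 promoter, and the gamma +93.8 kb site reaches 202 in R567W brain and 230 in R567W lung.

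Downstream of the alpha cluster, the constant exons end at 37187657. Both strong sites in the interval between there and the beta cluster were compared next, because the known alpha enhancer lies in this stretch. They are named by their distance from that end. Both had their highest level in brain, and both were higher in R567W than in wild-type brain beyond counting error. The paper reports CTCF binding in mutant brain as only slightly reduced at the alpha enhancer and at the beta and gamma enhancer. Its signals were scaled by the spike-in chromatin, which does not enter the ratios here, and the member sites were not matched to these enhancers. At the alpha +29.8 kb site the pileup was 99 reads in wild-type and 169 in R567W brain and 46 and 20 in lung, and no heart peak was listed. At the alpha +30.8 kb site it was 103 and 166 in brain, 27 in wild-type heart, and 76 and 63 in lung, with no peak in R567W heart. In R567W brain, both summits fell in 1 region (chr18:37217198-37218671), together with a further summit of 15 reads at alpha +30.2 kb.

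The ratio of R567W to wild type at alpha +29.8 kb was 1.44 in brain (interval 1.12 to 1.86) and 0.466 in lung (0.261 to 0.804), so the intervals lay on opposite sides of 1. With the median over shared core-motif regions as the scale, the lung interval, in log2 -1.57 to 0.05, includes no change. At alpha +30.8 kb it was 1.36 in brain (1.06 to 1.75) and 0.889 in lung (0.626 to 1.26). The brain ratios were at percentiles 81.9 and 77.4 of all shared brain regions, and the lung ratios at percentiles 17.7 and 61.9 of all shared lung regions.

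The order of organs at the alpha sites was unlike that of most CTCF sites. Over all 31683 sites with a summit in both wild-type brain and wild-type lung, the median log2 of lung over brain was 0.94, and lung was higher at 92.9%. Of the 15 member sites in this comparison, lung was higher at 12 and brain at 3, and the 3 were the Pcdhac1 promoter, alpha +29.8 kb and alpha +30.8 kb. The log2 of lung over brain was -0.83 at the Pcdhac1 promoter (interval -1.37 to -0.30) and -0.95 at alpha +29.8 kb (-1.48 to -0.43), at percentiles 0.893 and 0.625 of all sites. At alpha +30.8 kb it was -0.28, with an interval of -0.73 to 0.16 that includes 0, at percentile 3.79. In R567W the log2 was -2.57 at alpha +29.8 kb and -0.89 at alpha +30.8 kb, at percentiles 0.0253 and 3.14 of the R567W sites, whose median was 0.55. In R567W brain was higher at 5 of 15 members, and the other 3 were gamma +114.5 kb (-0.69, percentile 4.94), gamma +45.3 kb (-0.35) and gamma +38.5 kb (-0.04), each with an interval that includes 0. Of all R567W sites, 79.1% were higher in lung. The Pcdhac1 promoter could not be compared, as it had no peak in R567W lung.

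**Figure D2:**
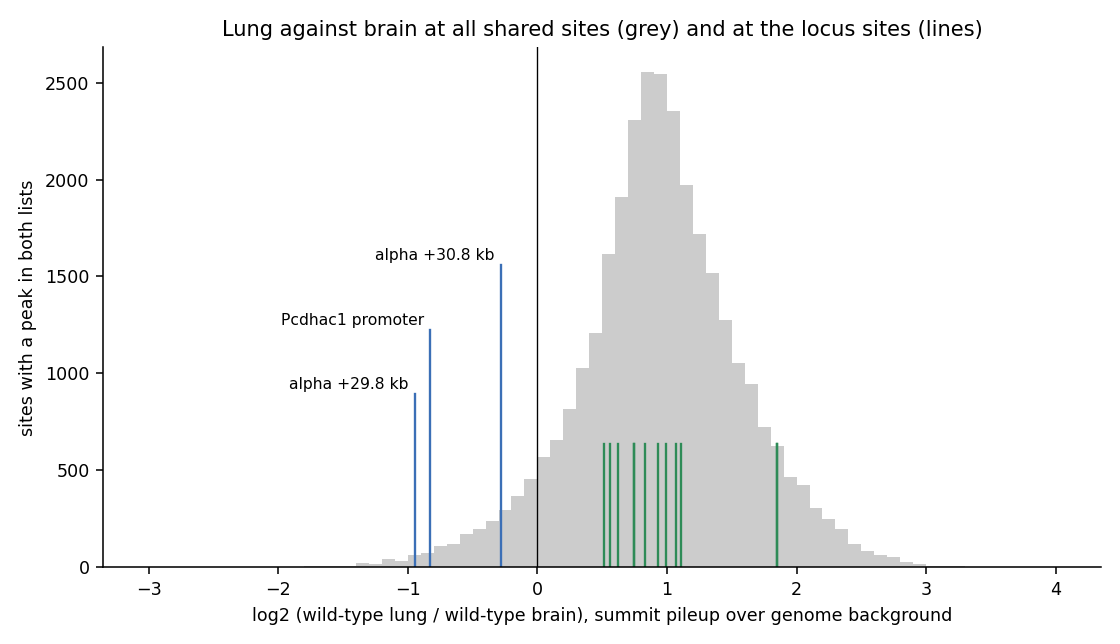
Log2 of wild-type lung over wild-type brain in summit pileup over genome background, for 31683 sites with a peak in both lists (grey, bins of 0.1) and for the 15 member sites among them (lines, whose height carries no value). The 3 named lines, chosen because brain was higher there, lie at -0.95, -0.83 and -0.28, to the left of most sites.

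Heart was lower than brain at all 13 member sites with both wild-type peaks, with a median log2 of -1.57, and every interval excluded 0. Over all 20226 sites the median was -1.26, and heart was higher at 3.60%. The log2 of heart over brain was lowest at the Pcdhac1 promoter, at -2.53 (interval -3.40 to -1.76), and was -1.96 at alpha +30.8 kb. At the Pcdhgc3 promoter it was -0.76 (-1.40 to -0.13), the smallest gap among the members. In R567W, heart was lower at 7 of 8 members with a median log2 of -2.19, against -1.76 over all 11531 sites, of which 1.67% were higher in heart. The eighth was the Pcdhgc3 promoter, at 0.07 with an interval of -0.65 to 0.79 that includes 0, at percentile 98.6 of all sites. These differences take in the enrichment of each library, which was lower in heart at most sites.

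The gamma constant exons end at 37841873. In the last exon, 426 bp before this end and in the shared 3′ untranslated region (chr18:37841149-37841688), a peak had 53 and 73 reads in wild-type and R567W brain, 17 in wild-type heart, and 68 and 67 in lung. The ratios of 1.16 in brain and 1.06 in lung had intervals that include 1. No R567W heart peak was listed.

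Beyond it, 7 sites of 3 or more lists lay along the introns of Diaph1 up to its promoter, all named by their distance from the end of the gamma exons, and these held the strongest member peaks. The site at gamma +41.8 kb (chr18:37883297-37884238) had 207 and 256 reads in wild-type and R567W brain, 71 against 36 in heart, and 311 against 206 in lung. It was the highest member of the wild-type brain and wild-type heart lists, at percentiles 99.3 and 98.7. Its ratio of R567W to wild type was 1.04 in brain (interval 0.865 to 1.26), 0.710 in lung (0.593 to 0.850) and 0.458 in heart (0.298 to 0.693). The lung ratio was at percentile 42.2 of all shared lung regions. On the core-motif scale its log2 was -0.13 (-0.39 to 0.13), and by fold enrichment it turned to 2.25. The heart ratio was the only one of 8 in heart with an interval off 1, and was at percentile 4.81 of all shared heart regions.

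The gamma +93.8 kb site (chr18:37935349-37936093), 180 bp from the Diaph1 start and outside the gene, had 196 and 408 reads in brain, 54 against 67 in heart, and 334 against 328 in lung. It was the highest member in the other 4 lists. The brain ratio of 1.75 (interval 1.48 to 2.09) was the highest at any member, at percentile 93.0 of all shared brain regions, whereas the ratios of 1.12 in heart and 1.05 in lung had intervals that include 1. On the core-motif scale the lung interval lay above no change, in log2 0.22 to 0.66.

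The gamma +10.4 kb site (chr18:37851979-37852784) had 144 and 237 reads in brain, 52 against 49 in heart, and 257 against 200 in lung. Its brain ratio was 1.39 (interval 1.12 to 1.72). The gamma +35.6 kb site (chr18:37877127-37877866) had 95 and 190 reads in brain, 40 against 34 in heart, and 143 against 135 in lung, with a brain ratio of 1.69 (1.31 to 2.18). The gamma +38.5 kb site (chr18:37880089-37880744) had 78 and 143 reads in brain, 40 against 40 in heart, and 124 against 98 in lung, with a brain ratio of 1.55 (1.16 to 2.06). All 3 were thus higher in R567W brain than in wild-type brain, while their heart and lung intervals included 1 (on the core-motif scale the lung interval at gamma +35.6 kb lay above it). With no scaling, the lung interval at gamma +10.4 kb lay below no change, in log2 -0.64 to -0.09. Of all shared brain regions, 18.3% had an interval above no change.

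The gamma +45.3 kb site (chr18:37886790-37887482) had 50 and 92 reads in brain, 20 in wild-type heart alone, and 66 and 51 in lung. Its brain ratio of 1.55 had an interval of 1.09 to 2.23. The gamma +66.4 kb site (chr18:37907857-37908799) had 93 and 114 reads in brain, 30 against 24 in heart, and 128 against 118 in lung, and no interval of it excluded 1. A summit of 7 reads at gamma +40.1 kb, listed in R567W lung alone, was the weakest member.

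Past Diaph1, the gamma +142.6 kb site (chr18:37984111-37984753), in an intron of Arap3, had 103 and 144 reads in brain, 33 against 39 in heart, and 199 against 178 in lung, with every interval across 1. Its lung interval lay above no change on the core-motif scale, in log2 0.005 to 0.60. With no scaling its brain interval did so as well, in log2 0.11 to 0.86. The gamma +114.5 kb site (chr18:37956032-37956590), in an untranslated exon of Rell2 and 741 bp from its start, had 33 and 39 reads in brain, 15 in wild-type heart alone, and 62 and 17 in lung. Its lung ratio of 0.294 (interval 0.161 to 0.509) was the lowest of any member in any organ, at percentile 5.06 of all shared lung regions.

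Between the beta and gamma clusters, a site 144 bp from the start of the non-coding gene 3222401L13Rik (chr18:37655290-37656058) had no wild-type brain peak and 28 reads in R567W brain. It had 31 reads in wild-type heart alone, and 54 and 34 in lung. The lung ratio of 0.675 had an interval of 0.426 to 1.06.

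**Figure D3:**
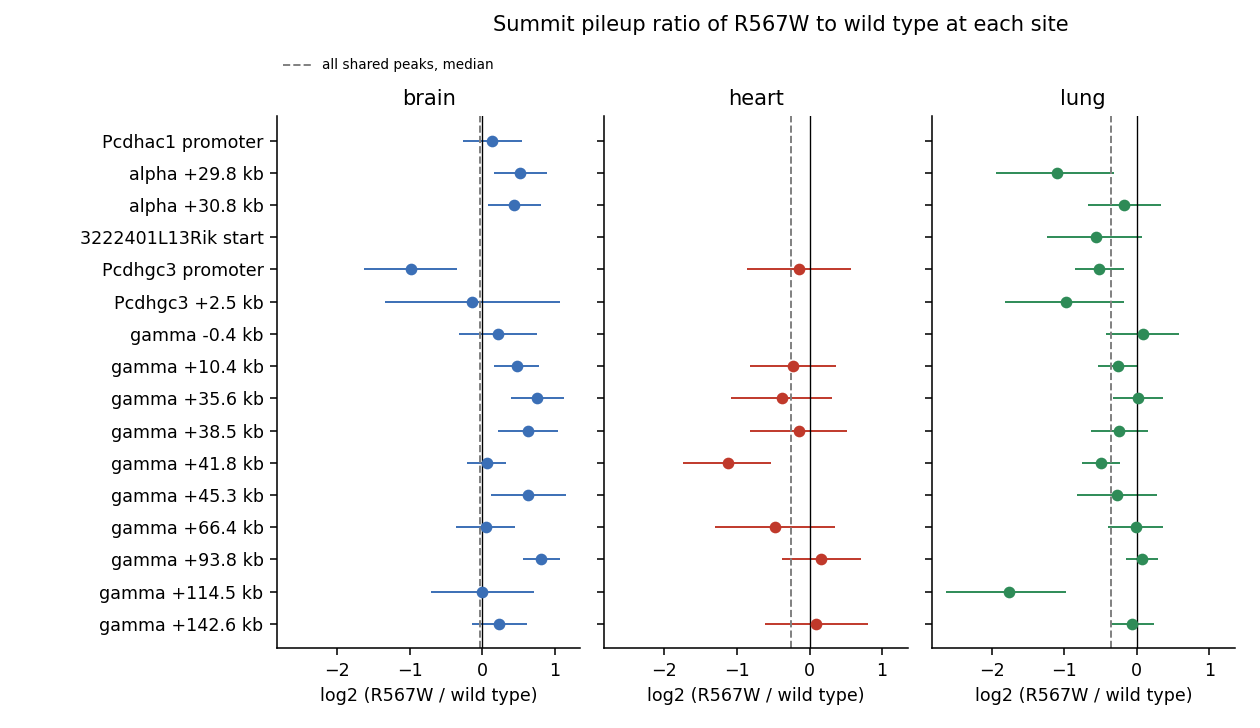
Log2 ratio of R567W to wild type in summit pileup over genome background at each member site with a peak in both lists of an organ, with exact conditional binomial 95% intervals (counting error only, 1 library each). The dashed line is the median of all shared regions, -0.04 in brain, -0.26 in heart and -0.36 in lung; 7 of 15 brain intervals lie above 0 (18.3% of all shared regions), and 5 of 15 lung intervals lie below it (39.9% of all), which becomes 1 below and 3 above on the core-motif scale.

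The member ratios of the organs were set beside those of all shared regions, which differed by organ as well. In brain, 12 of 15 shared members were higher in R567W, with a median log2 ratio of 0.24 and a range from -0.98 to 0.81, against a median of -0.04 over 29368 shared regions, of which 48.1% were higher. In heart, 2 of 8 were higher, with a median of -0.19 against -0.26 over 10665 regions, of which 26.9% were higher. In lung, 3 of 15 were higher, with a median of -0.26 against -0.36 over 29738 regions, of which 25.8% were higher. The strongest shared regions, those of the highest quintile, had other medians than the full lists. Their brain median was 0.13, nearer to the 0.24 of the members than the -0.04 of all regions. Their heart median of -0.37 lay below that of the heart members. Their lung median of -0.19 lay above that of the lung members. Counting intervals lay above 0 at 7 of 15 brain members and 18.3% of all shared brain regions, and below 0 at 1 and 21%. In heart they lay above 0 at 0 of 8 members and 0.9% of all, and below 0 at 1 and 15%. In lung they lay above 0 at 0 of 15 members and 3.55% of all, and below 0 at 5 and 39.9%, so the lung share was not above that of the list. The signs of the heart and lung medians turn when the median over shared core-motif regions is used as the scale, to 0.06 and 0.10, since that scale shifts all ratios of heart by 0.25 and of lung by 0.37. On this scale the median in brain was 0.28, and 7 brain intervals were above 0, against 20.2% of all. In lung 1 interval was below 0, at gamma +114.5 kb, against 22.9% of all, and 3 lay above it, at gamma +35.6 kb, gamma +93.8 kb and gamma +142.6 kb, against 19.4%. With no scaling, 9 brain intervals lay above 0, against 29.4% of all, and 7 lung intervals below it, against 46.2%. Members above the median of all shared regions numbered 13 of 15 in brain, 5 of 8 in heart and 9 of 15 in lung.

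The genotypes were then compared across the organs by limma, with the organ as the pairing, at the 10654 sites with a summit in all 6 lists, of which 8 were members. This fit asks for a change common to the organs, and sites that lacked a peak in any library could not enter. Its error was drawn mostly from all sites of like level. A p-value of a site thus does not measure how alike its own organs were. Of the 8 members, 0 were called at an adjusted p of 0.05, and 2 had an unadjusted p below it, as had 22.3% of all sites. Of all sites, 10.4% were called lower and 0.666% higher in R567W. The Pcdhgc3 promoter had a mean log2 ratio of -0.55 (interval -1.01 to -0.08, adjusted p = 0.131) and was below 0 in 3 of 3 organs, but in heart its log2 ratio was 0.11 on the core-motif scale and 0 with no scaling. The gamma +41.8 kb site was lower in 2 of 3, at -0.52 (-0.96 to -0.08, adjusted p = 0.118). The gamma +93.8 kb site was above 0 in 3 of 3, at 0.35 (-0.10 to 0.80, adjusted p = 0.389), but in lung its log2 ratio was -0.03 with no scaling. With the median over core-motif sites as the scale, limma called 2 members, gamma +41.8 kb lower (adjusted p = 0.0372) and gamma +93.8 kb higher (adjusted p = 0.0426), against 11.2% of all sites lower and 4.3% higher. Without brain, limma called gamma +41.8 kb alone of the members, at -0.81 (adjusted p = 0.00038), and 16.1% of all sites lower. That fit held heart and lung only and left 1 residual degree of freedom, so its error too leaned on other sites. The same site was at -0.22 without heart (adjusted p = 0.767) and at -0.53 without lung (adjusted p = 0.762).

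Changes of 2-fold were counted beside those of all shared regions. In brain, 0 of 15 members were 2-fold higher and 0 were 2-fold lower, against 3.29% and 11.3% of all shared brain regions. In heart, 0 of 8 were higher and 1, at gamma +41.8 kb, was lower, against 0.178% and 7.2%. In lung, 0 of 15 were higher and 2, at alpha +29.8 kb and gamma +114.5 kb, were lower, against 0.599% and 20.8%.

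Whether a wild-type peak had an R567W peak at all was compared next. In brain, all 15 member regions of the wild type were overlapped by an R567W region (interval 79.6 to 100%), as were 81.5% of all wild-type brain regions. In lung, 15 of 16 were overlapped (93.8%, interval 71.7 to 98.9%), against 67% of all. By fold enrichment, most of these members were strong peaks. By pileup, the median member was at percentile 83.1 of the wild-type brain list and 67.4 of the wild-type lung list. In wild-type lung, where the local background rose with the pileup, quintiles of fold enrichment need not rank peaks by pileup. Quintiles 4 and 5 of wild-type fold enrichment, with 5 the highest, held 6 and 6 brain members and 5 and 5 lung members. Of all regions in these quintiles, 95.6% and 99.2% were overlapped in brain, and 87.9% and 92.8% in lung. In heart, 8 of 14 were overlapped (57.1%, interval 32.6 to 78.6%), against 50.6% of all, so the share of heart members kept was near that of the list. With both heart lists cut to equal length by −log10 q, 88.9% of the 9 member regions left were overlapped and 71.3% of all.

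The 6 heart regions without an R567W overlap were the Pcdhac1 promoter, alpha +30.8 kb, the 3222401L13Rik start, gamma -0.4 kb, gamma +45.3 kb and gamma +114.5 kb. Their pileup lay between 15 and 31 reads in wild-type heart, and that of the 8 kept members between 30 and 71. In the lowest quintiles of wild-type heart fold enrichment, 16.6% and 33.3% of all regions were overlapped, and 0 of the 2 and 0 of the 3 members there. In quintiles 3 and 4, 50.7% and 67.4% of all regions were overlapped, and 1 of the 1 and 3 of the 4 members. The member of quintile 4 without an overlap was the 3222401L13Rik start, at a fold enrichment of 11.7. In the highest quintile 85.2% of all regions were overlapped, and 4 of the 4 members.

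In the other direction, R567W regions without a wild-type overlap were 2 of 16 members in brain, the Pcdhac2 promoter and the 3222401L13Rik start, against 24.5% of all R567W brain regions. In heart they were 0 of 8, against 7.12% of all R567W heart regions. In lung 1 of 16, the 7-read summit at gamma +40.1 kb, had none, against 9.11%.

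**Figure D4:**
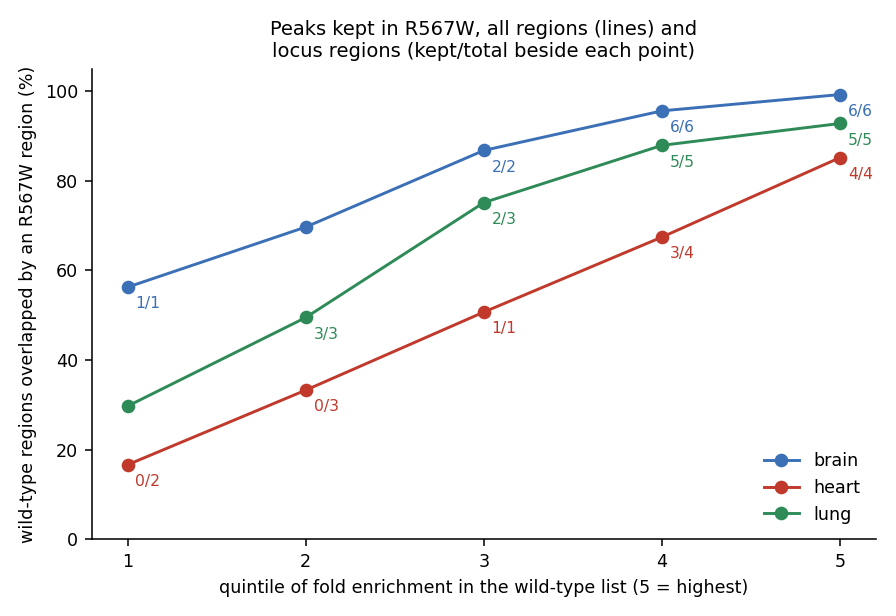
Share of wild-type regions overlapped by an R567W region (%) in quintiles of wild-type fold enrichment, for all regions of an organ (lines), with the number of member regions kept and their total written beside each point. In heart the share rises from 16.6% to 85.2%, and the 5 members of the lowest 2 quintiles are all without an overlap.

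Members differed in how many libraries listed them. Of 20 sites, 8 had a summit in all 6 lists, against 17.4% of all sites, and 4 had one in a single list, against 31.4%. The 8 were the Pcdhgc3 promoter and the gamma +10.4, +35.6, +38.5, +41.8, +66.4, +93.8 and +142.6 kb sites. Both strong sites downstream of the alpha cluster, alpha +29.8 kb and alpha +30.8 kb, were in 4 and 5 lists and lacked a peak in R567W heart. The summit at alpha +30.2 kb was in R567W brain alone.

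The motif under each summit was examined last. The core motif was called in 11 of 20 member sites (55.0%, interval 34.2 to 74.2%), against 70.8% of all sites and, in windows beside the sites, 10.0% for members and 4.48% for all. All 11 were among the 16 member sites in 3 or more lists (68.8%, interval 44.4 to 85.8%), a cut not made for all sites. Among promoters, Pcdhac1 held a match of 11.6 bits on the plus strand, at percentile 13.1 of all core matches by score. Pcdhac2 and Pcdhgc3 held none at this threshold of 9.48 bits, although the Pcdhgc3 peak was listed in every library. No match was called at gamma +38.5 kb either, where up to 143 reads were stacked. The absence of a match says only that these letters were not within 100 bp of the summit.

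The orientation of the matches differed between promoters and downstream sites. The match at Pcdhac1 and all 12 matches at 29 promoter sites of the alternate genes lay on the plus strand, the strand of transcription. At alpha +29.8 kb and alpha +30.8 kb the matches lay on the minus strand, facing the promoters. At the gamma sites from gamma -0.4 kb to gamma +45.3 kb, every match called was on the minus strand, as was that at gamma +93.8 kb, and the matches at gamma +66.4 kb and gamma +142.6 kb were on the plus strand. In all, 3 member matches were plus and 8 minus, and 49.8% of matches over all sites were plus. By score, gamma -0.4 kb stood at percentile 95.8, gamma +142.6 kb at 94.7 and gamma +93.8 kb at 85.9 of all core matches, and alpha +30.8 kb at 17.3.

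The upstream motif, searched as TGCAGTNCC with at most 2 mismatches within 30 bp 5′ of the core match on its strand, was found at 3 of 11 core-motif members (27.3%, interval 9.75 to 56.6%), against 26.4% of all core-motif sites. The mirrored window 3′ of the core, which serves as the background, held it at 4 of 11 members and 13.5% of all, so the members' share was not above their own background. The 3 were gamma +35.6 kb, gamma +66.4 kb and gamma +142.6 kb, with gaps of 8, 9 and 7 bp to the core. Their log2 ratios of R567W to wild type were 0.75, 0.05 and 0.24 in brain. They were -0.38, -0.47 and 0.09 for heart and 0.02, -0.02 and -0.06 for lung. Over all shared core-motif regions of brain the median log2 ratio was -0.25 with the upstream motif and 0.03 with none. These medians were -0.33 and -0.23 for heart, and -0.64 and -0.29 for lung. All 3 members stood above the median of regions with the upstream motif in brain and in lung, and in heart 1 stood above and 2 below.

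Promoter sites of other coding genes with peaks in the same lists were ranked by the root mean square difference in log2 level. For the Pcdhac1 promoter, among 67 promoter sites in the same 4 lists, the nearest were those of Scn2a (0.44), a neuronal sodium channel gene, Nrg2 (0.49), a neuregulin gene, and Gm2956 (0.62), a predicted gene. The Scn2a site had 98 and 148 reads in brain, 22 in wild-type heart and 73 in wild-type lung. For the Pcdhgc3 promoter, among 1924 promoter sites in all 6 lists, they were those of Cblc (0.19), Lgr6 (0.24) and Dpep2 (0.25), and the Cblc site had 58 and 34 reads in brain, 40 against 33 in heart, and 225 against 153 in lung. For the Pcdhac2 promoter only 1 library could be compared, in which 2080 promoter sites had a peak in R567W brain alone, so no gene was singled out. Stretches of 29 bases that hold the core match are shown for Scn2a (chr2:65620689-65620717, GRCm38, plus strand, 13.4 bits) and Cblc (chr7:19797389-19797417, plus strand, 23.5 bits). They were chosen because they give the letters of a weak and a strong match, and the 19 bases of the core are in capitals.
Scn2a: tgtggCCAGGAGATGGAGCTGTCAtgcaa
Cblc: gacagCCACCAGAGGGCGCCGTGGacacg
The Cblc promoter thus held a strong core match at levels close to those of the Pcdhgc3 promoter, where none was called.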

How the data were processed

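CTCF ChIP-seq peak lists of 6 libraries were analysed. The 6 input libraries of the series were not analysed here. Per the study's methods, trimming was done by the authors in Trim Galore, alignment to joined mm10 and hg38 genomes in Bowtie2 and peak calling, library by library, in MACS2, from uniquely aligned reads. The control library of each list is not given in the sources used here. Each deposited line gave a score derived from the q-value, a fold enrichment (a ratio) of summit pileup to local background, and −log10 p-values and q-values. The summit pileup and local background were recovered from the deposited fold enrichment and p-value, which a whole-number pileup solved for 100% of lines, and were tested on simulated data. The genome background was the lowest background of a list. Regions with several summits were counted once, and regions overlapping by 1 bp were shared. Where a region held several summits, the R567W summit nearest to the wild-type summit was used.

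Start sites came from the basic GENCODE M21 annotation of GRCm38, the build called mm10, for 57 clustered protocadherin genes. Core matches were called at p of 1e-04 by a 19-column matrix, trained on the top 2000 wild-type brain regions by fold enrichment outside chromosome 18, within 100 bp of the summit on both strands. Pileup intervals are exact Poisson, ratio intervals exact conditional binomial, and shares Wilson, all at 95%. Across organs, limma with an intensity trend was fitted to log2 levels with terms for organ and genotype. It had 2 residual degrees of freedom and Benjamini-Hochberg adjustment over all sites, and was tested on simulated data. Its error is the spread between organs, drawn mostly from all sites of like intensity and little from a site's own ratios. Reads are not independent molecules, so the pileup and ratio intervals cover counting error only.

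Sites with a peak in 3 or more of 6 lists and the highest member of each list were described in full, and the rest by their values. The members and lists were chosen with earlier results of these data known. The alternatives tried were −log10 q of 5 or more, every summit line, promoter distances of 2 kb and 0.5 kb, gene starts only, other definitions of overlap, lists of equal length, other scalings, stricter motif calls and a matrix from R567W brain regions. Bases of the member sites are not printed. Versions were limma 3.58.1 in R 4.3.3, pysam 0.24.0, scipy 1.17.1, pandas 2.3.3, numpy 2.4.6, matplotlib 3.10.9 and Python 3.11.15.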

Additional observations from a re-analysis of the deposited data

Results flagged for a closer look

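At alpha +29.8 kb the log2 ratio of R567W to wild type was 0.52 in brain and -1.10 in lung. The organs moved in opposite directions, each beyond counting error on the genome-background scale, and the difference was not tested, as every organ and genotype had 1 library. With the median over shared core-motif regions as the scale the values were 0.57 and -0.74, the latter with an interval of -1.57 to 0.05 that includes 0, and by fold enrichment they were 0.13 and -0.15.

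The number of member regions changed by 1 in brain, by -6 in heart and by 0 in lung from wild type to R567W. This difference between organs was not tested either. In heart, 50.6% of all wild-type regions had an R567W overlap.

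The local background, from which the deposited fold enrichment and q-values were computed, had a median of 4.08 times the genome background at the member sites of wild-type lung. In the other 5 lists that median lay between 1.00 and 1.55 times. Its part in the lung peak lists was not tested.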

How the results depend on the processing

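The fit across organs, with the organ as the pairing, was added after seeing the data. It called 1178 of 10654 sites, against 0 with no replicate block, 291 with no scaling, 1648 with the median over core-motif sites as the scale and between 201 and 1754 without 1 organ (201 without lung, 497 without heart, 1754 without brain). It called 0 of 8 members, against 2 with the median over core-motif sites as the scale and between 0 and 1 without 1 organ. Without 1 organ, 1 residual degree of freedom was left. Of 93 other comparisons of the counts, shares and medians with an alternative, 88 stayed within their limits. With the median over shared core-motif regions as the scale, the median log2 ratio of the members was 0.064 in heart and 0.10 in lung, against -0.19 and -0.26, because that scale moves every ratio of an organ alike. By fold enrichment the lung median was 1.03, and the local background of wild-type lung moves with that value. With heart lists of equal length, 88.9% of member regions were overlapped, against 57.1%, over 9 regions in place of 14. With at most 1 mismatch, the upstream motif was found at 9.09% of core-motif members, against 27.3%, and 11.5% of all. Among single sites, fold enrichment turned 3 lung ratios that were off 0, at the Pcdhgc3 promoter to 1.03, 2.5 kb downstream of the Pcdhgc3 start to 0.12 and at gamma +41.8 kb to 2.25. Of 114 comparisons for single sites, 21 others left the counting interval without a turn of a called sign. Chosen after seeing the data, leaving out the sites within 1 kb of the start of another gene gave a median of 0.24 in brain, of -0.23 in heart and of -0.25 in lung. A peak that was not listed has no value, and the lowest pileup listed was between 7 and 9 reads.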
